A study of Mus musculus with 24 samples.

Results

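Macrophage marker genes were followed in 24 mouse tumours of a study of pancreatic ductal adenocarcinoma (PDAC). The set holds 10 genes listed by symbol: Adgre1, Csf1r, Cd68, Cd163, Mrc1, Cx3cr1, C1qa, C1qb, C1qc and Mertk. The rule uses no measured value, but the set was drawn up with earlier results of these data known. Of these, 9 were measured among the 19505 genes of the array, each by the probe set that the platform annotation gives that symbol. No probe set carries the symbol Cd68 in that annotation, so the gene is named here without a value. The tumours fall into 4 groups of 6: tumours treated with BMS754807 together with hydroxychloroquine (the combination), BMS754807 alone, hydroxychloroquine alone, and a control labelled as treated with vector. BMS754807 is a small molecule that inhibits the receptors for insulin-like growth factor 1 and for insulin, and hydroxychloroquine is a weak base that gathers in lysosomes and blocks the degradation step of autophagy. The labels give no strain, age, dose, duration, tumour model or tumour site, and do not say whether each of the 6 samples of a group came from its own animal. Errors and p-values therefore measure the spread between these samples.

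Macrophages are phagocytes that in a tumour derive from blood monocytes or from cells resident in the tissue before the tumour grew. They depend on signals through the receptor encoded by Csf1r, clear dying cells with receptors such as Mertk, and secrete much of the complement protein C1q. Pancreatic tumours are known for a dense stroma rich in macrophages, many of which carry the scavenger receptors Cd163 and Mrc1.

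C1qb and C1qc code for chains of the same protein, lie next to each other in the gene order of chromosome 4 and followed each other closely between tumours. Their orders of groups differed in the places of hydroxychloroquine and control, and Cd163 had another order than either. Promoters are shown for these 3 genes. Each runs from 250 bases before to 50 bases after the annotated start, 5′ to 3′ on the gene's own strand, from RefSeq in build GRCm38.p6. Capitals mark GAGGAA or its reverse complement TTCCTC, the core letters bound by PU.1, the ETS factor of the myeloid lineage encoded by Spi1. The C1qb promoter is chr4:136886151-136886450 on the minus strand, that of C1qc is chr4:136892865-136893164 on the minus strand, and that of Cd163 is chr6:124304401-124304700 on the plus strand.
C1qb: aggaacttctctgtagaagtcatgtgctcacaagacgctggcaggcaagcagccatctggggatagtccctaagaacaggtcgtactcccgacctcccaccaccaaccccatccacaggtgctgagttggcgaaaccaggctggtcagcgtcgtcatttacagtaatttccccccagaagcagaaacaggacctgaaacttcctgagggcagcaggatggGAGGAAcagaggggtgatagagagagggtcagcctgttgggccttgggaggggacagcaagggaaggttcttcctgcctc
C1qc: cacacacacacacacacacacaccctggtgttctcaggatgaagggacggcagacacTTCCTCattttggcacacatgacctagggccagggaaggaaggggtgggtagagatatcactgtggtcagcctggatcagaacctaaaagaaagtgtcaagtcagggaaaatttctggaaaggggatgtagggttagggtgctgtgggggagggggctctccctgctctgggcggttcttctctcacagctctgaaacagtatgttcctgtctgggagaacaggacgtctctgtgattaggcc
Cd163: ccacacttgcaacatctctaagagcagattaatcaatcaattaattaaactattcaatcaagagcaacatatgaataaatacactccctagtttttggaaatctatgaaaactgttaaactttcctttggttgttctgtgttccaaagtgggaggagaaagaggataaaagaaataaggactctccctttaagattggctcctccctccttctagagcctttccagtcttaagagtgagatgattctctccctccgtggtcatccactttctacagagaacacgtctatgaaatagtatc
The motif occurs once in each C1q promoter and has no match in these 300 bases of Cd163. The motif did not go with the order of groups: Mrc1, which had the order of Cd163, holds 3 matches, and Cx3cr1 and Mertk hold 0. Of the 10 members 7 have a promoter in the table used here, and 4 of these 7 hold GAGGAA on either strand, beside 28.3% of all 32851 promoters of the same length. The ETS-IRF composite element, bound by PU.1 with an interferon regulatory factor, was found in 1 of 7 against 2.72% of all promoters, and TTCNNNGAA, the letters bound by STAT factors, in 0 of 7 against 8.3%. These motifs share letters and can overlap. A match is a description of the letters and not of binding.

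The deposited values are log2 signals of Clariom S arrays, on which array medians lay between 6.79 and 7.03. Cx3cr1 and Cd163 had the weakest signals of the members, with means over the 24 tumours of 6.23 and 6.65 log2, below every array median. Of all genes 45.2% and 47.3% had lower means than these. Arrays give no count depth, and their number limits the precision. Over all probe sets, any pair of arrays correlated between 0.975 and 0.994. BMS754807 tumour 6, control tumour 5 and hydroxychloroquine tumour 4 fitted the group means least well (array weights 0.419, 0.518 and 0.593). These same 3 tumours held the highest macrophage values, so several group differences and the pair correlations are also given without them. Ranges, SDs within groups and the genes most like the members are given with all 24 tumours only.

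The macrophage genes lay lowest in the combination tumours, but no member passed the threshold of an adjusted p under 0.05 in any comparison of groups. In the combination 9 of 9 members had a mean below control, where 48.4% of all genes did, by a median of -0.61 log2, where the median of all genes was 0.0067. BMS754807 alone and hydroxychloroquine alone each had 5 of 9 members below control (49.7% and 50.1% of all genes), with member medians of -0.0067 and -0.04 log2. For Cd163 the hydroxychloroquine mean (5.99 log2) was as low as the combination mean (5.98), while the hydroxychloroquine means of Csf1r and Adgre1 stood at or above those of control. Mrc1 had the same order of groups as Cd163, with hydroxychloroquine -0.31 ± 0.29 log2 from control. In RNA of whole tumours, fewer macrophages and less of a transcript per macrophage cannot be told apart. All 3 comparisons with control use the same 6 tumours as control.

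**Figure D1:**
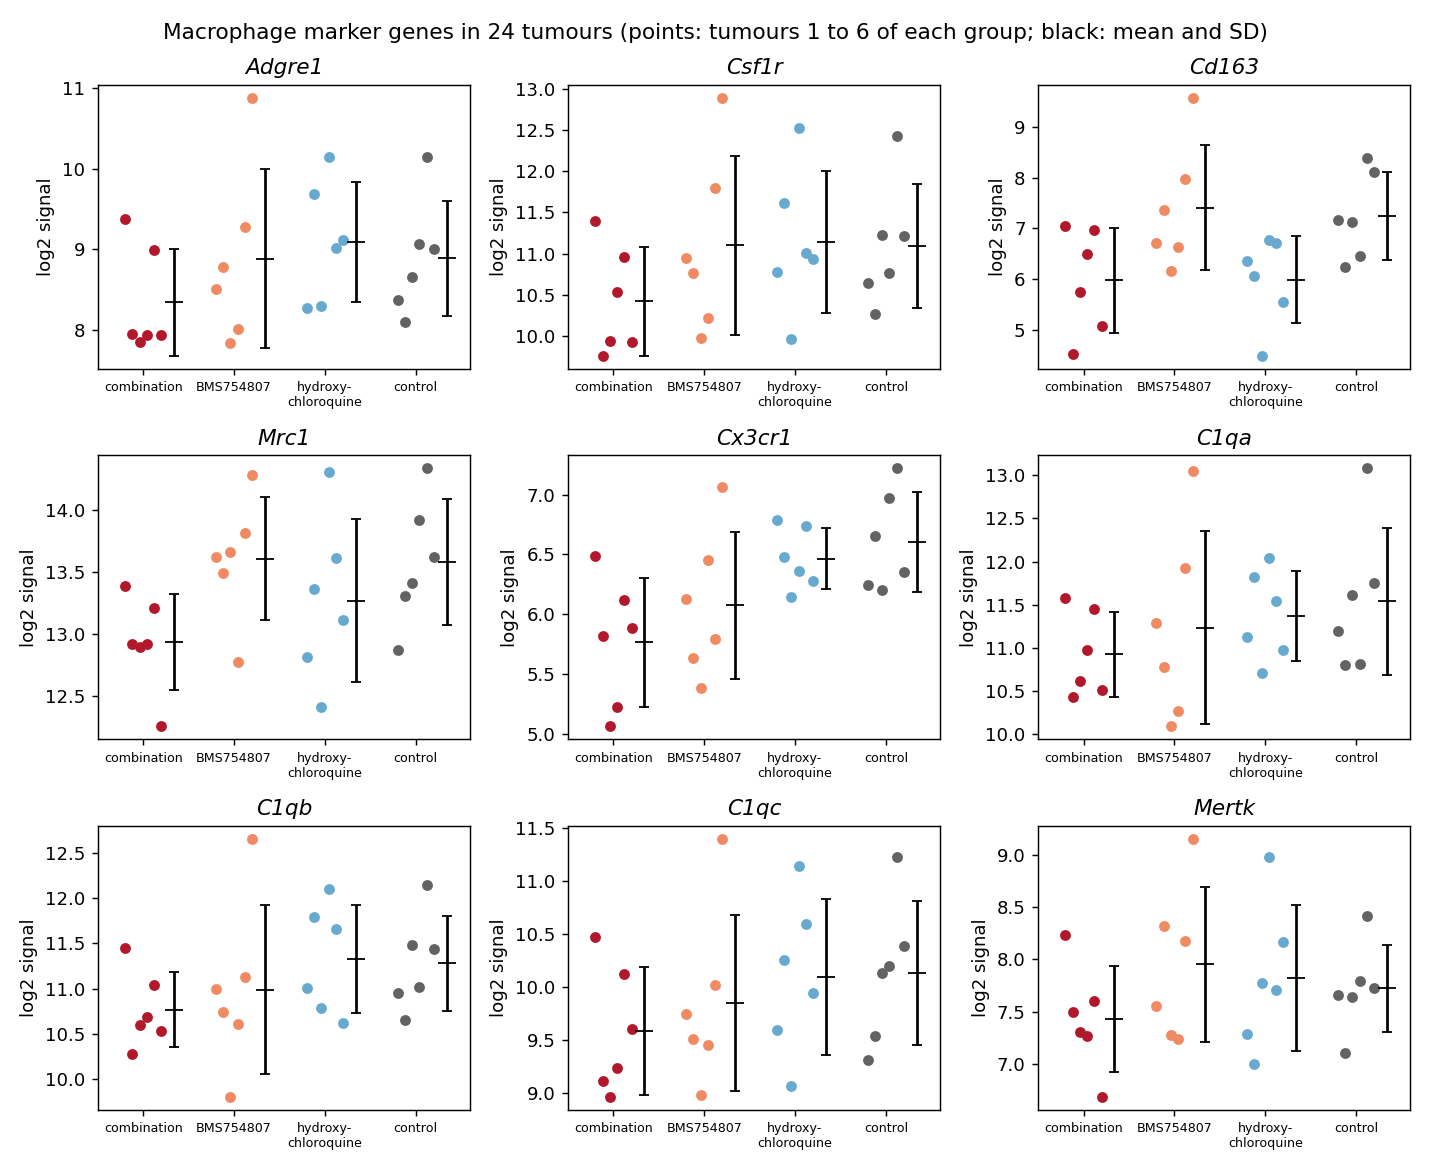
Log2 signal of each of the 9 measured macrophage genes in every tumour (points, 6 per group), with the group mean and SD in black; each panel has its own axis. Groups overlap in every panel, and BMS754807 tumour 6 is the highest of its group in all 9.

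The C1q chains come first by role, as the secreted products. C1qa, C1qb and C1qc encode the A, B and C chains of C1q, which starts the classical complement pathway and marks dying cells for uptake. C1qa ran from 10.43 to 11.58 log2 with a median of 10.80 in combination tumours, from 10.09 to 13.05 (median 11.04) with BMS754807, from 10.71 to 12.04 (median 11.34) with hydroxychloroquine, and from 10.80 to 13.08 (median 11.40) in control. All 4 groups overlapped, and the highest values were those of control tumour 5 and BMS754807 tumour 6. The combination mean differed from control by -0.61 ± 0.42 log2 (SE, n = 6 per group; 95% interval -1.49 to 0.26; limma adjusted p = 0.944).

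C1qb ran from 10.28 to 11.45 log2 (median 10.65) in the combination, from 9.80 to 12.66 (median 10.87) with BMS754807, from 10.62 to 12.10 (median 11.34) with hydroxychloroquine and from 10.65 to 12.15 (median 11.23) in control. C1qc ran from 8.96 to 10.47 log2 (median 9.42) in the combination, from 8.98 to 11.40 (median 9.63) with BMS754807, from 9.06 to 11.14 (median 10.10) with hydroxychloroquine and from 9.31 to 11.23 (median 10.17) in control. The groups overlapped for both chains, with BMS754807 tumour 6 highest each time. Their combination means differed from control by -0.52 ± 0.35 log2 for C1qb and -0.55 ± 0.39 log2 for C1qc, each below the control mean in 5 of 6 tumours. Neither passed the threshold. The 3 chains differed from control by -0.31 to -0.28 log2 with BMS754807 and by -0.17 to 0.05 log2 with hydroxychloroquine, every one less than its SE.

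Csf1r and Adgre1 are the surface receptors. Csf1r encodes the receptor for the growth factors Csf1 and Il34, on which most macrophages depend, and Adgre1 encodes an adhesion G protein-coupled receptor used as a macrophage marker in mice. Csf1r ran from 9.76 to 11.40 log2 (median 10.24) in the combination, from 9.98 to 12.89 (median 10.86) with BMS754807, from 9.96 to 12.53 (median 10.98) with hydroxychloroquine and from 10.27 to 12.43 (median 10.99) in control. Combination tumours 1 and 5, at 11.40 and 10.96, were the highest of their group, and all groups overlapped. The means differed from control by -0.67 ± 0.46 log2 in the combination (95% interval -1.62 to 0.28), by 0.01 ± 0.46 with BMS754807 and by 0.05 ± 0.46 with hydroxychloroquine.

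Adgre1 ran from 7.85 to 9.37 log2 (median 7.95) in the combination, from 7.83 to 10.88 (median 8.64) with BMS754807, from 8.27 to 10.15 (median 9.07) with hydroxychloroquine and from 8.09 to 10.14 (median 8.83) in control. In the combination 4 tumours lay between 7.85 and 7.95, below every hydroxychloroquine and control tumour, while tumours 1 and 5 lay within the range of the other groups. The differences from control were -0.55 ± 0.45 log2 in the combination, -0.01 ± 0.45 with BMS754807 and 0.20 ± 0.45 with hydroxychloroquine, all short of the threshold.

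Cd163 takes up haemoglobin bound to haptoglobin, and Mrc1, the mannose receptor CD206, takes up glycoproteins. Cd163 ran from 4.53 to 7.04 log2 (median 6.12) in the combination, from 6.17 to 9.57 (median 7.05) with BMS754807, from 4.49 to 6.78 (median 6.21) with hydroxychloroquine and from 6.23 to 8.38 (median 7.14) in control. All 6 combination tumours and all 6 hydroxychloroquine tumours lay below the control mean of 7.24, and no BMS754807 tumour lay below the hydroxychloroquine mean of 5.99, although the ranges overlapped. The combination differed from control by -1.27 ± 0.54 log2, 0.416 of the control level (95% interval -2.39 to -0.15; limma adjusted p = 0.944). Hydroxychloroquine alone differed from control by -1.25 ± 0.54 log2 (95% interval -2.37 to -0.13; limma adjusted p = 0.979), and BMS754807 alone by 0.17 ± 0.54. Neither the combination nor hydroxychloroquine passed the threshold against control.

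Mrc1 ran from 12.25 to 13.39 log2 (median 12.92) in the combination, from 12.77 to 14.29 (median 13.64) with BMS754807, from 12.41 to 14.31 (median 13.24) with hydroxychloroquine and from 12.87 to 14.34 (median 13.52) in control. Every combination tumour lay below the control mean, and the ranges overlapped. The combination differed from control by -0.65 ± 0.29 log2 (95% interval -1.24 to -0.06; limma adjusted p = 0.944), hydroxychloroquine by -0.31 ± 0.29 and BMS754807 by 0.03 ± 0.29.

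Cx3cr1 encodes the receptor for fractalkine (Cx3cl1) and is carried by monocytes and by some tissue macrophages. It ran from 5.06 to 6.49 log2 (median 5.85) in the combination, from 5.38 to 7.06 (median 5.96) with BMS754807, from 6.14 to 6.79 (median 6.42) with hydroxychloroquine and from 6.20 to 7.22 (median 6.50) in control. Combination tumour 1 was the only one of its group above the lowest control tumour. The combination differed from control by -0.84 ± 0.26 log2, 0.559 of the control level (95% interval -1.38 to -0.30; limma adjusted p = 0.873). BMS754807 alone differed by -0.53 ± 0.26 log2 and hydroxychloroquine alone by -0.14 ± 0.26. None of these passed the threshold.

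Mertk encodes a receptor tyrosine kinase that, bound to Gas6 or protein S, drives the uptake of apoptotic cells. It ran from 6.69 to 8.23 log2 (median 7.41) in the combination, from 7.24 to 9.15 (median 7.87) with BMS754807, from 7.0 to 8.98 (median 7.75) with hydroxychloroquine and from 7.11 to 8.41 (median 7.70) in control. Groups overlapped, and combination tumour 6 was the lowest of all 24. The differences from control were -0.29 ± 0.33 log2 in the combination, 0.23 ± 0.33 with BMS754807 and 0.10 ± 0.33 with hydroxychloroquine, each smaller than its SE.

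**Figure D2:**
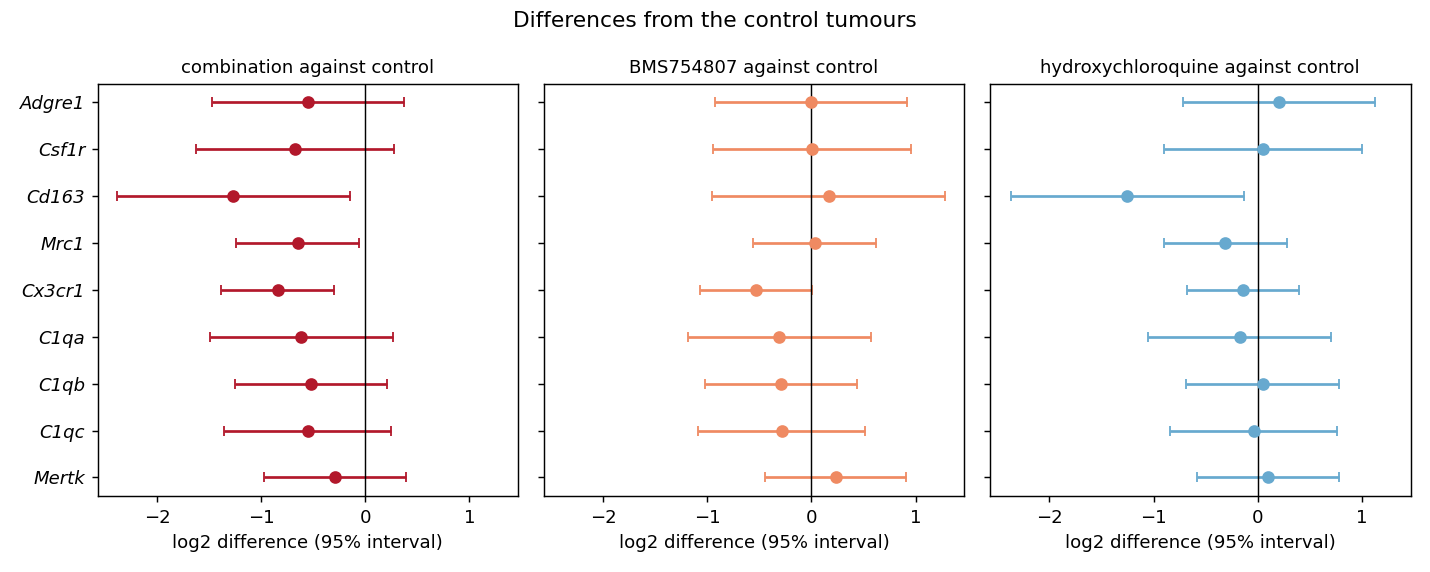
Difference of each treated group from control on the log2 scale with its 95% interval from the fit over all 24 arrays, for the 9 measured genes. All 9 points lie left of 0 in the combination panel, where the intervals of Cd163, Mrc1 and Cx3cr1 do not cross 0, and that of Cd163 does not with hydroxychloroquine.

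Against the background of all genes, 0% of genes passed the adjusted threshold in the 3 comparisons with control, in the combination against either single agent, in the interaction of the agents, and in the test for any difference among the 4 groups. At an unadjusted p under 0.05, 3 of 9 members lay lower in the combination than in control, where 2.39% of all genes did and 2.66% lay higher, and these were Cd163, Mrc1 and Cx3cr1. With hydroxychloroquine alone 1 member, Cd163, lay lower at that level (2.38% of all genes, with 2.43% higher), and with BMS754807 alone 0 of 9 did (3.09% lower and 2.78% higher). No member had groups that did not overlap: that held for 0.308% of all genes in the combination against control, 0.154% with hydroxychloroquine and 0.174% with BMS754807. The members move together between tumours, so their counts are not counts of independent genes. Without BMS754807 tumour 6, control tumour 5 and hydroxychloroquine tumour 4 the combination still had 9 of 9 means below control, at -1.04 log2 for Cd163, -0.72 for Cx3cr1, -0.50 for Mrc1, -0.40 for Csf1r and -0.15 for Mertk, with adjusted p from 0.944 to 0.991.

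Set against the single agents, the combination again had 9 of 9 means lower, both against BMS754807 (50.6% of all genes) and against hydroxychloroquine (48% of all genes). The count against BMS754807 rests on BMS754807 tumour 6: without it, or without the 3 tumours of highest macrophage values, 6 of 9 lay lower and C1qa, C1qb and C1qc stood higher by 0.06, 0.11 and 0.04 log2. Without the 3 tumours 8 of 9 lay lower than with hydroxychloroquine, and Cd163 stood at 0.14 log2. Against BMS754807 the sizes ran from -1.43 ± 0.54 log2 for Cd163 (limma adjusted p = 0.475) to -0.23 ± 0.35 for C1qb, and Cd163 and Mrc1 (-0.68 ± 0.29) lay lower at an unadjusted p under 0.05, which 3.48% of genes did. Against hydroxychloroquine Cx3cr1 alone did so (-0.70 ± 0.26 log2; limma adjusted p = 0.902; 2.59% of genes), while Cd163 was nearly level at -0.02 ± 0.54. Groups did not overlap for 0.651% of genes against BMS754807 and 0.267% against hydroxychloroquine, and for 0 members. The interaction ran from -0.75 ± 0.63 log2 (Adgre1) to -0.14 ± 0.60 (C1qa), with 0 members past the threshold and wide 95% intervals, such as -2.05 to 0.56 for Adgre1.

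Order of the group means placed the combination last for all 9 members, though not stably. Cd163 stood at -0.02 ± 0.54 log2 from hydroxychloroquine, and at 0.06, 0.03 and 0.025 with array weights, quantile normalization and median centring. Without BMS754807 tumour 6 the combination stood above BMS754807 for C1qa, C1qb and C1qc (0.06, 0.11 and 0.04 log2). Neighbouring means differed by less than their SE in most steps, and the largest step between neighbours was that between control and hydroxychloroquine for Cd163 (1.25 ± 0.54 log2, control the higher). In limma's test for any difference among the 4 groups Cx3cr1 had an adjusted p of 0.581 and Cd163 of 0.594. These were the 2 members under 0.05 before adjustment, as were 7.21% of all genes.

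Each agent was also averaged over both backgrounds, a comparison added after the values were seen. Differences of 1 member were not tested against those of another. For hydroxychloroquine, with or without BMS754807, Cd163 differed by -1.34 ± 0.38 log2 (95% interval -2.13 to -0.55; limma adjusted p = 0.301) and Mrc1 by -0.49 ± 0.20 (adjusted p = 0.521). The other 7 members lay between -0.32 and -0.09 log2. Without the 3 tumours of highest macrophage values Cd163 stood at -1.09 log2 (limma adjusted p = 0.386). For BMS754807, with or without hydroxychloroquine, Cx3cr1 differed by -0.62 ± 0.19 log2 (95% interval -0.999 to -0.23; limma adjusted p = 0.679) and Cd163 by 0.07 ± 0.38. No gene passed the adjusted threshold in either (0% of all genes in both). At an unadjusted p under 0.05, 2 members lay lower with hydroxychloroquine, beside 3.55% of all genes, and 1 with BMS754807, beside 2.69%.

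Tumours of the same group differed in these genes more than they did in most. The SD within groups was 1.01 log2 for Cd163, 0.85 for Csf1r, 0.83 for Adgre1, 0.79 for C1qa and 0.48 for Cx3cr1, the lowest of the 9, where the median over all genes was 0.33. Cd163 thus covered 5.08 log2 across the 24 tumours, a 33.8-fold range, and Csf1r 3.13 log2, an 8.75-fold range. The groups accounted for 8.90% (C1qa) to 36.6% (Cx3cr1) of the variance, against a median of 12.2% over all genes. Only Cx3cr1 and Cd163 (34.8%) stood near or above the 95% quantile of all genes, which was 34.9%.

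The tumours high in 1 macrophage gene were high in the others. Averaged over the 9 members as deviations from each gene's mean over 24 tumours, BMS754807 tumour 6 stood at 1.66 log2, control tumour 5 at 1.27 and hydroxychloroquine tumour 4 at 0.94, with 9 of 9 members above their means in each. At the other end, combination tumours 2, 6 and 3 stood at -0.85, -0.84 and -0.78 log2 with 0 of 9 members above their means. The combination was not uniform, since its tumour 1 stood at 0.38 with 9 of 9 members above their means. Each of the other groups also held a low tumour, at -0.76 in BMS754807 tumour 3, -0.70 in hydroxychloroquine tumour 3 and -0.37 in control tumour 2. Combination tumour 1, BMS754807 tumour 6 and control tumour 5 were also rich in skeletal muscle transcripts (mean deviations of 5.34, 3.57 and 3.95 log2). So were BMS754807 tumour 2 and hydroxychloroquine tumour 5, whose macrophage values were -0.07 and 0.29. Hydroxychloroquine tumour 4 was not (-2.08 for muscle). The part of muscle tissue in the high macrophage values was not tested.

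How the members follow each other was measured on deviations from the group mean, over 24 tumours and 36 pairs. Mean differences between treatments therefore do not enter, but any spread in response between tumours of a treated group stays in. Pearson's r was above 0 for every pair, with a median of 0.793, and 33 of the 36 passed a permutation test within groups after adjustment over the pairs (28 by Spearman's rho). With all genes of the array the members' median r lay between -0.04 and -0.01, and 3.03% (Cx3cr1) to 8.35% (Csf1r) of genes had an r over 0.5 with a member. Csf1r and C1qa were the closest pair (r = 0.951, rho = 0.937, permutation p = 1e-05 each, adjusted p = 3e-05 and 4e-05). The value 1e-05 is the smallest that 100000 permutations can give. Without the 2 tumours farthest from the median of Csf1r, r for this pair was 0.952. Adgre1 and Csf1r followed with r = 0.945 and rho = 0.91, then the C1q chains C1qa and C1qb with r = 0.935 and rho = 0.91. The median r within groups was 0.766 in the combination, 0.888 with BMS754807, 0.758 with hydroxychloroquine and 0.839 in control.

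**Figure D3:**
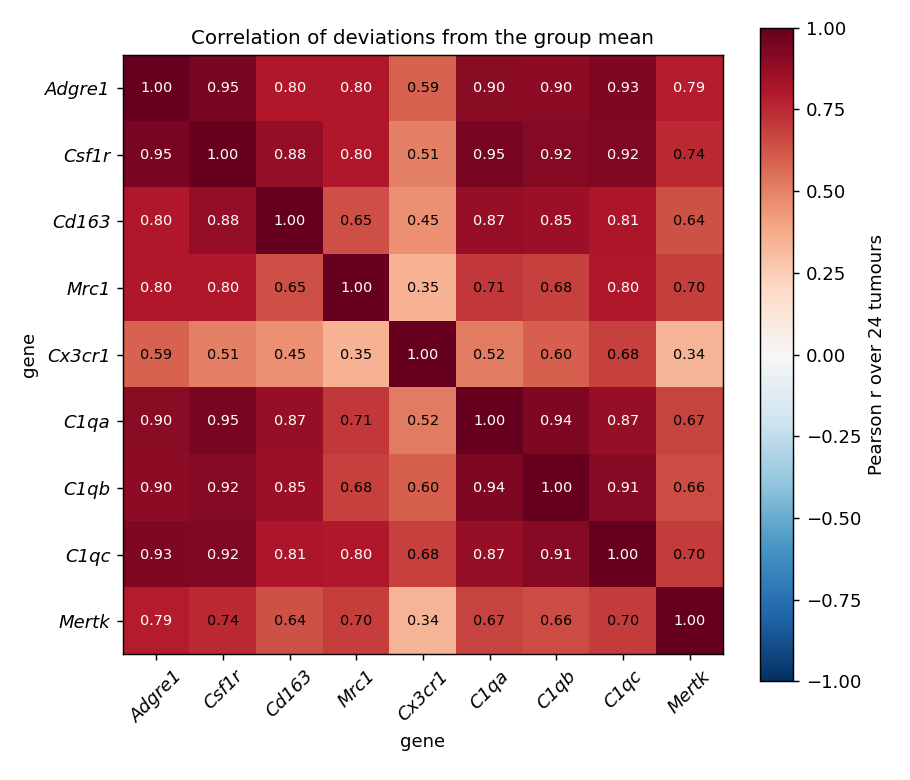
Pearson's r between deviations from the group mean for each pair of the 9 measured genes over 24 tumours, on a colour scale from -1 to 1. Adgre1, Csf1r and the 3 C1q genes form a block with r of 0.87 and above, and the row of Cx3cr1 is the palest.

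Cx3cr1 followed the others least, with a median r of 0.512 to the other members, against 0.899 for Csf1r. Its pairs with Mertk (r = 0.338, rho = 0.216, permutation p = 0.14 and 0.35), Mrc1 (r = 0.35, rho = 0.372, permutation p = 0.091 and 0.074) and Cd163 (r = 0.454, rho = 0.342, permutation p = 0.054 and 0.14) were the 3 that did not pass, with adjusted p for r of 0.14, 0.093 and 0.058. Mrc1 (median r 0.702) and Mertk (0.684) stood between. Cx3cr1 also had the weakest signal of the members (mean 6.23 log2), and the part of weak signal in its low r was not tested. When the 2 tumours farthest from the median of the first gene were left out, r stayed above 0 in all 36 pairs, with a median of 0.683 and a lowest value of 0.109 for Cx3cr1 and Mertk. Without BMS754807 tumour 6, control tumour 5 and hydroxychloroquine tumour 4 the median r was 0.608, and 21 pairs passed instead of 33. Without the 5 tumours rich in skeletal muscle transcripts the median was 0.631 and 19 pairs passed.

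Among genes outside the set, those whose deviations were most like the mean of the members were Dab2 (r = 0.955), an endocytic adaptor, C3ar1 (0.952), the receptor for complement fragment C3a, the Fc receptor genes Fcgr3 (0.948) and Fcer1g (0.948), and Spi1 (0.946), all over 24 tumours. Next came Tnfaip6, Ms4a6c, Ms4a7, Slc43a3 and Fcgr2b, down to 0.939. Csf1r was closest to Fcgr2b (0.958), Adgre1 to Ms4a7 (0.956), C1qa to the chemokine gene Ccl6 (0.958), C1qb to Fcer1g (0.926) and C1qc to Ms4a7 (0.956). Mertk was closest to Tfec (0.894), a transcription factor of the Mitf family, and Mrc1 to Pdpn (0.888), Ppic (0.88) and Cxcl12 (0.877). For Cx3cr1 no gene came closer than Rpa1 (0.784). These are descriptions over tumours that share their cell mixture.

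The genes closest to Cd163 were Ccl8 (r = 0.938), a chemokine, Cbr2 (0.932), a carbonyl reductase, and Cd209f (0.901), a C-type lectin of the DC-SIGN family. In hydroxychloroquine tumours, these lay below control, by -0.57 ± 0.55 log2 for Ccl8, -0.89 ± 0.72 for Cbr2 and -0.86 ± 0.69 for Cd209f, none past the threshold. Averaged over both backgrounds the hydroxychloroquine difference was -1.55 ± 0.49 log2 for Cd209f (limma adjusted p = 0.339), -1.01 ± 0.51 for Cbr2 and -0.66 ± 0.39 for Ccl8. The likeness was computed with group means removed, so these differences did not enter the choice of the 3 genes directly. Genes that follow Cd163 this closely over the same tumours share the spread of its group means. Their differences are therefore not independent of that of Cd163. Low values with hydroxychloroquine were not particular to them: Ccl6, the gene closest to C1qa, differed from control by -0.96 ± 0.47 log2 with hydroxychloroquine and by -0.92 ± 0.33 over both backgrounds (limma adjusted p = 0.979 and 0.441).

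Cd163 was then set against Csf1r as a gauge of macrophage transcripts. Csf1r also followed scores of endothelial, fibroblast and pericyte markers, given below (r = 0.872, 0.856 and 0.823), and ran against the epithelial score (-0.774). It was itself -0.67 ± 0.46 log2 from control in the combination. Values set against it are therefore not corrected for macrophage content alone. The gene and the gauge were chosen because Cd163 had been seen to be low with hydroxychloroquine, so these values are a description, with no test. Cd163 minus Csf1r, whose absolute size has no meaning between probe sets, averaged -4.45 ± 0.49 log2 in combination tumours, -3.69 ± 0.34 with BMS754807, -5.15 ± 0.62 with hydroxychloroquine and -3.85 ± 0.46 in control (SD, n = 6 each). The 6 values ran from -4.23 to -3.32 with BMS754807 and from -5.75 to -4.30 with hydroxychloroquine, without overlap, and 5 of 6 hydroxychloroquine tumours lay below every control tumour. The share of all genes whose difference from Csf1r would keep these groups apart is not given, so the lack of overlap has no background. The difference from control was -1.30 log2 with hydroxychloroquine and -0.60 in the combination.

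**Figure D4:**
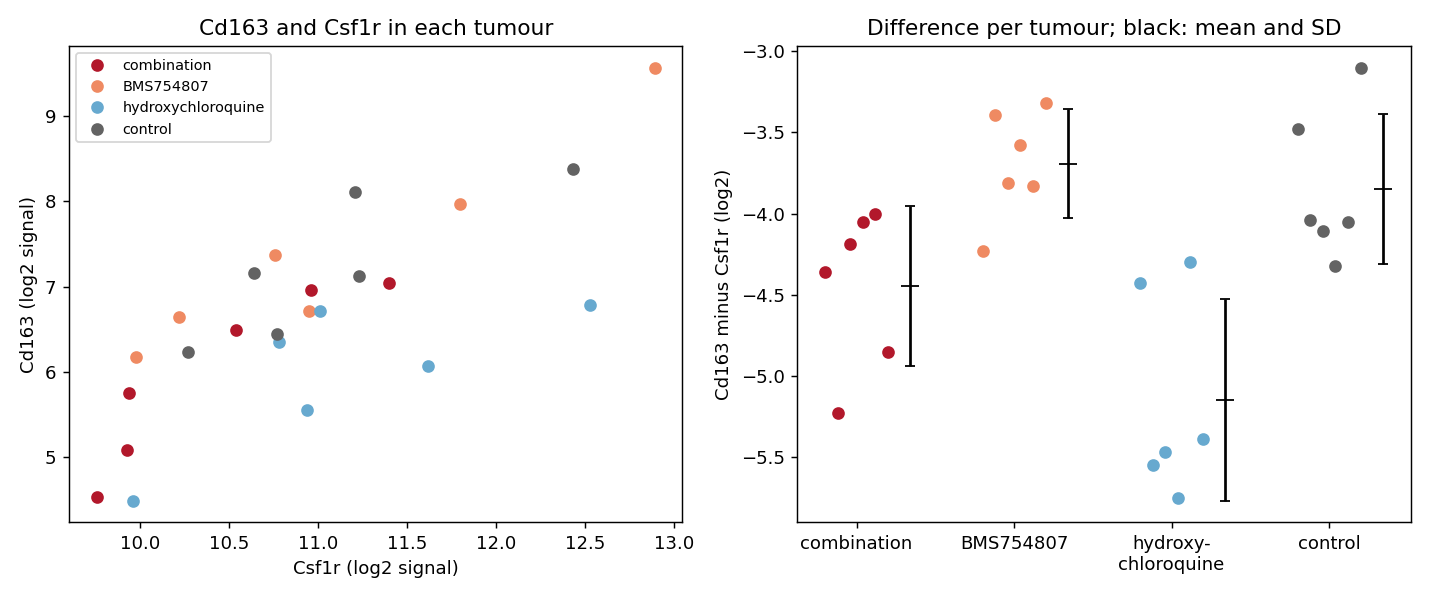
Left, log2 signal of Cd163 against that of Csf1r in each of the 24 tumours, coloured by group; right, Cd163 minus Csf1r per tumour with the group mean and SD in black. At like Csf1r most hydroxychloroquine tumours lie lower, and on the right their 6 values (-5.75 to -4.30) all lie below the 6 of BMS754807 (-4.23 to -3.32). The share of all genes that would do so is not given.

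With Csf1r as a covariate across the other 19504 genes, Cd163 was higher in BMS754807 than in hydroxychloroquine tumours by 1.46 ± 0.27 log2 (95% interval 0.89 to 2.02; limma adjusted p = 0.0401), the 1 member of 8 that passed. The adjustment covers the genes of this fit and not the choice of Cd163 and of the covariate, both made after the values were seen. The p-values of Cd163 in this fit are therefore a description and not a test of a difference named beforehand. Of all genes 0.159% passed in that fit, and 0.0205% in the same comparison without the covariate, where Cd163 differed by 1.42 ± 0.54 log2 (limma adjusted p = 0.432), the 1 member higher at an unadjusted p under 0.05 (4.34% of genes), and groups did not overlap for 0.508% of genes and 0 members. The 4 genes that passed there without the covariate were ccdc198, Plaur, Tgfb3 and Timp3, named after their values were seen. Against control the covariate fit gave Cd163 -1.30 ± 0.27 log2 with hydroxychloroquine (limma adjusted p = 0.329) and -0.57 ± 0.28 in the combination (adjusted p = 0.9995), and over both backgrounds -1.01 ± 0.20 for hydroxychloroquine (adjusted p = 0.106). Hydroxychloroquine against control had 0.00513% of genes past the threshold (Stk26), and the other covariate comparisons 0%. With the covariate the combination differed from control by -0.04 to 0.07 log2 for Adgre1, Mertk and the C1q genes, while Cx3cr1 stood at -0.65 ± 0.24 and Mrc1 at -0.32 ± 0.19. Ccl6 stood at -1.01 ± 0.19 log2 with hydroxychloroquine against control in this fit (limma adjusted p = 0.26).

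The call for Cd163, a gene picked after its values were seen, is also near its threshold. With Adgre1, C1qa, C1qb or C1qc in place of Csf1r the difference between BMS754807 and hydroxychloroquine was 1.62, 1.57, 1.86 and 1.69 log2 (limma adjusted p = 0.0544, 0.0235, 0.00851 and 0.0456). Leaving out 1 tumour at a time it ran from 1.31 to 1.63 log2, and the call was lost without BMS754807 tumours 2, 3 or 6 or hydroxychloroquine tumours 2, 3, 4 or 6.

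Other genes of the macrophage programme were counted from lists of which the members are no part. Of 26 measured other macrophage genes 23 lay lower in the combination than in control, with a median of -0.52 log2, and 0 passed the adjusted threshold. Among these were Aif1, which encodes the macrophage protein Iba1 (-1.05 ± 0.40 log2), and the lysosomal protease gene Ctss (-0.67 ± 0.27), while the lipopolysaccharide co-receptor gene Cd14 stood at 0.08 ± 0.15. With BMS754807 alone 20 of 26 lay lower (median -0.15 log2) and with hydroxychloroquine alone 18 of 26 (median -0.07). Of all genes 48.4% lay below control in the combination, 49.7% with BMS754807 and 50.1% with hydroxychloroquine. Genes of a list can share a cell type, so the counts here and below are not counts of independent genes. Of 12 macrophage transcription factor genes 8 lay lower in the combination (median -0.21 log2), with Spi1 at -0.78 ± 0.37, Tfec at -0.58 ± 0.28 and Maf at -0.54 ± 0.25.

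Of 16 ligands and partners of the members 12 lay lower in the combination (median -0.35 log2). The ligand genes Il34 and Cx3cl1 were among those that did not, with means of 8.58 and 10.5 log2 in the combination against 8.43 and 10.3 in control. The chemokine receptor gene Ccr2 of inflammatory monocytes stood at -1.05 ± 0.42 log2 there, Tyro3, a kinase of the Mertk family, at 0.27 ± 0.25 and the chaperone gene Calr at 0.09 ± 0.09. Of 10 genes of the complement pathways and C1q-like proteins 9 lay lower (median -0.39 log2), with C3ar1 at -0.81 ± 0.46, the properdin gene Cfp at -0.76 ± 0.43 and C1qbp, which encodes a mitochondrial protein, at 0.25 ± 0.12. Of 23 macrophage activation genes 15 lay lower in the combination (median -0.13 log2). Retnla, a gene of alternatively activated mouse macrophages, was -2.17 ± 1.02 log2 in the combination, -1.71 ± 1.02 with BMS754807 and -2.49 ± 1.02 with hydroxychloroquine, and Tgfb1 and Cxcl10 stood at 0.01 ± 0.13 and -0.29 ± 0.31 in the combination. None of these genes passed the adjusted threshold in any comparison with control.

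Markers of other cell types moved with the macrophage genes between tumours. Over 15 lists and 9 members (135 relations, deviations from group means, 24 tumours, adjusted over all 135), the mean score of 14 epithelial markers ran against every member, with r from -0.80 to -0.58 and 9 of 9 past the permutation test. For Csf1r r was -0.774 and rho -0.664 (permutation p = 0.00017 and 0.0019, adjusted p = 0.00076 and 0.007), and -0.681 without the 2 tumours farthest from the median epithelial score. Endothelial, pericyte and fibroblast scores went with them (median r 0.811, 0.811 and 0.804, with 8 of 9 past each), as did monocyte markers (0.751, 8 of 9), the exception each time being Cx3cr1. Endothelium and Csf1r had r = 0.872 and rho = 0.757 (permutation p = 1e-05 and 0.00012, adjusted p = 0.00017 and 0.0011), and r = 0.783 without the 2 farthest tumours. The score of genes shared by all leukocytes had a median r of 0.557 (6 of 9 past by r and 7 by rho), that of NK cells 0.48 (3 of 9), of dendritic cells 0.462 (3 of 9) and of adipocytes 0.298 (1 of 9). The order of these lists was not stable: without the 2 tumours farthest from the median of each score the median r was 0.722 for leukocytes, 0.673 for endothelium, 0.677 for pericytes, 0.729 for fibroblasts and 0.616 for monocytes. For NK cells, dendritic cells and adipocytes it was 0.116, 0.399 and 0.123. By rho over all 24 tumours 1, 4 and 0 of 9 passed for these 3 lists. Scores of T cells (-0.02), B and plasma cells (-0.07), mast cells (-0.08), neutrophils (0.41), lymphatic endothelium (0.251) and skeletal muscle (0.398) passed with 0 of 9.

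Group values of these scores are given without a test. Epithelial scores had a median of 0.43 log2 in the combination (range -0.29 to 0.67), 0.04 with BMS754807, 0.04 with hydroxychloroquine and -0.06 in control (range -0.91 to 0.30), and 12 of 14 epithelial genes lay higher in the combination than in control. Leukocyte scores had medians of -0.39, -0.28, -0.12 and 0.15 in the combination, BMS754807, hydroxychloroquine and control tumours, with ranges of -0.81 to 0.33 in the combination and -0.43 to 0.82 in control. Endothelial scores had medians of -0.31, 0.11, -0.04 and -0.04 in the same groups, with ranges of -0.59 to -0.03 in the combination and -0.61 to 1.41 in control. In the combination 10 of 10 leukocyte genes and 11 of 11 endothelial genes lay below control, where 48.4% of all genes did. Their list medians were -0.54 and -0.42 log2, beside -0.61 for the macrophage members. Pericyte genes were lower in 7 of 9 (median -0.45 log2) and monocyte genes in 8 of 9 (median -0.16). Fibroblast genes were lower in 7 of 11 with a list median of -0.0033 log2, and fibroblast scores had medians of -0.14, -0.09, 0.29 and -0.13 in the 4 groups. Their part in the low macrophage values of the combination was not tested.

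**Figure D5:**
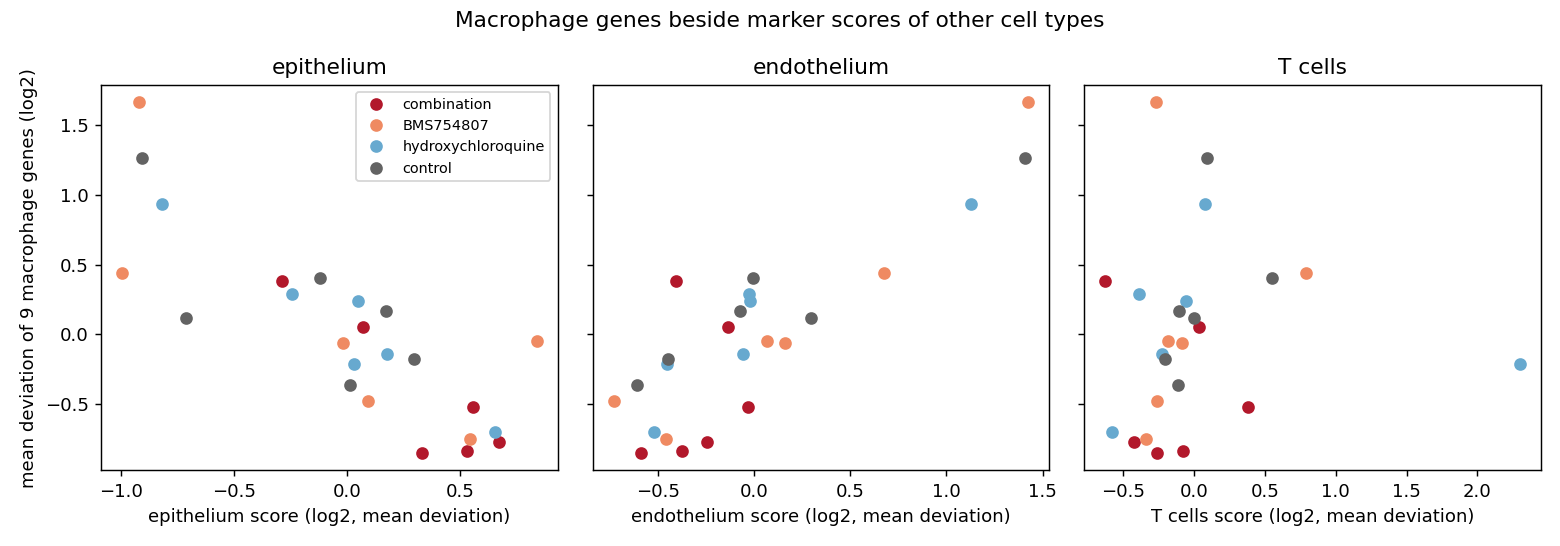
Mean deviation of the 9 macrophage genes (vertical axis, log2) against the marker scores of epithelium, endothelium and T cells (horizontal axes, log2, mean deviation) in 24 tumours, coloured by group. The macrophage genes run down with the epithelial score and up with the endothelial score, and show little relation with the T cell score.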

How the data were processed

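RNA from 24 tumours, 250 ng per array per the labels' protocols, was hybridised to Affymetrix Clariom S arrays. The deposited values are log2 signals made by the authors, with Transcriptome Analysis Console 4.0 named in the submitters' processing notes. The log base was inferred from the values (1.45 to 19.0), and background correction and normalization are not given in the sources used here. The platform annotation gives 1 symbol to 19572 of the 22206 probe sets, several to 0 and none to 2634. The probe set with the highest mean was kept per gene, leaving 19505 genes. Groups were taken from the sample titles.

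The 24 arrays entered a single fit with a mean for each group (limma 3.58.1 under R 4.3.3, functions lmFit and eBayes, 20 residual degrees of freedom). Tests were two-sided, adjusted by the Benjamini-Hochberg method over all genes, with a threshold of 0.05. Intervals are 95%. Correlations used deviations from group means and 100000 permutations within groups (numpy 2.4.6, scipy 1.17.1). The procedures were tested on simulated data.

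The members, lists and tests were chosen with earlier results of these data known. All members were named, with the 3 genes of smallest p per macrophage list in the test over the 4 groups and the genes most correlated with each member. Comparisons over both backgrounds, the Csf1r covariate and Cd163 minus Csf1r (given without a test) were added after the values were seen. Protein sequences of the C1q chains, which had been planned, are not printed, and 36 pairs were formed as Cd68 has no value. Alternatives covered an intensity trend, array weights, quantile normalization, median centring, a filter on the lowest 25% of genes, the mean of probe sets, the groups of a comparison alone, the replicate number as a block, and tumours left out.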

Additional observations from a re-analysis of the deposited data

How the results depend on the processing

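The members' differences kept their side of the threshold in every alternative fit. Of 2727 refitted differences 0 passed it, 2610 kept the sign reported, and 117 took the other sign. In all 117 the reported difference was smaller than its own SE (at most 0.31 log2), and such turns were counted apart from reversals, a convention set after they were seen.

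BMS754807 against hydroxychloroquine had 4 genes past the threshold as reported, 13 with an intensity trend, 2 with quantile normalization, 1 each with array weights, with those groups alone, with the replicate block and without the 3 tumours of lowest array weight, and 0 with arrays centred on the median and without the 5 muscle-rich tumours. Leaving out 1 tumour gave 0 to 9. The intensity trend gave 5 genes for hydroxychloroquine over both backgrounds and 2 for any difference among the groups, against 0 each as reported. Leaving out 1 tumour gave 0 to 2 and 0 to 1 for these, and 0 to 1 for BMS754807 against control, hydroxychloroquine against control and the combination against BMS754807. Members were among these genes in no comparison of groups or backgrounds. The causes were not tested.

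The call of Cd163 with Csf1r as a covariate, 1.46 log2 between BMS754807 and hydroxychloroquine, was lost with Adgre1 as covariate (1.62; adjusted p = 0.0544), array weights (1.43; 0.0535), the replicate block (1.45; 0.0733), without the 5 muscle-rich tumours (1.46; 0.183) and without the 3 of lowest weight (1.28; 0.133). With 1 tumour left out the value ran from 1.31 to 1.63. The cause was not tested. With an intensity trend hydroxychloroquine over both backgrounds gave Cd163 -1.01 at an adjusted p of 0.0464.

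The median r of the pairs, 0.793, was 0.711 with group means left in, 0.631 without the 5 muscle-rich tumours, 0.608 without the 3 of lowest weight and 0.710 to 0.804 without 1 tumour, lowest without BMS754807 tumour 6. The pairs past the threshold, 33, numbered 19, 21 and 29 to 35 in the last 3 of these settings.

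Deviations of same-numbered tumours correlated above 0.1 in at most 3 of 6 pairs, those of combination and control. Weak correlation cannot exclude a pairing, so whether the numbers pair the tumours cannot be told from this. With the replicate number as a block 1 gene passed for hydroxychloroquine against control and 1 for hydroxychloroquine over both backgrounds, and the other counts reported as 0 stayed at 0. Each tumour correlated best with its own number in 1 to 3 of 6.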
